A study of Mus musculus with 4 samples.

Results

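Genes of the Wnt pathway were followed across the cells of the fetal mouse cortex, 10 of the 16600 genes in the table. They were chosen by name and all 10 were measured: the R-spondin *Rspo3*, the ligands *Wnt5a*, *Wnt7a*, *Wnt7b* and *Wnt8b*, the receptor *Fzd8*, the secreted antagonist *Sfrp1* and the response genes *Axin2*, *Nkd1* and *Lef1*. Wnt ligands are secreted proteins that bind Frizzled receptors on nearby cells. In the canonical branch this stabilizes β-catenin, which enters the nucleus, pairs with TCF/LEF factors and switches on genes that include feedback inhibitors of the pathway. R-spondins raise the amount of Frizzled at the cell surface. In the forebrain, the cortical hem at the medial edge of the pallium is a well-known source of Wnt ligands, and the choroid plexus and many Cajal-Retzius cells arise at or beside it.

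The libraries came from single-cell (sc) RNA-Seq of cortical cells taken at E18.5 from C57BL/6J fetuses and sorted for CD24, a pan-neuronal surface marker, and against CD45, a hematopoietic one. The 4 libraries were 2 *Setd5*+/+ (wild type, prefixes WT3 and WT6) and 2 *Setd5*+/- (prefixes Het5 and Het9), the latter heterozygous for the constitutive knockout allele *Setd5* GFP, with no other allele or treatment named for either group. They held 1445 to 1954 cells and 8205330 to 11742956 unique molecular identifiers (UMIs, 1 for each captured transcript), with a median of 5398 to 5997 UMIs a cell. Levels are given as mean counts per 10000 UMIs over cells, and p-values measure the spread between libraries. The number of libraries of each genotype equals the number of fetuses that the study's methods give, though no label ties a library to a fetus.

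*Setd5* averaged 1.18 and 1.07 counts per 10000 UMIs in the *Setd5*+/+ libraries and 0.540 and 0.586 in the *Setd5*+/- libraries, a log2 fold change of -0.89 (SE 0.08, adjusted p = 0.00696 by limma with Benjamini-Hochberg adjustment). The X-inactivation transcript *Xist* averaged 20.6 and 21.5 in the *Setd5*+/+ libraries and 0.152 and 0.310 in the *Setd5*+/- libraries, and the Y-linked *Ddx3y* 0 and 0.000602 against 0.492 and 0.465, so sex and genotype cannot be told apart here. In all, 224 cells carried a cell barcode found in all 4 libraries and 277 one found in more than 1. Only 3 of the cells with *Rspo3* and 1 of those with *Wnt8b* were among the 277. The 224 cells lay in a melanocyte-like cluster (140 of its 147 cells) and an immune cell-like cluster (84 of its 105).

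The RefSeq table of gene starts held 8 windows for 5 of the 10 genes. *Axin2* and *Wnt8b* are shown because the first is the standard reporter of canonical signaling and the second marked cells with high *Axin2*, described further on. Each sequence is the 250 bases before the annotated start on the + strand of GRCm38.p6, at chr11:108920099-108920348 and chr19:44493222-44493471, and capitals mark the letters CTTTG, the core of TCF/LEF motifs, searched on both strands.
Axin2: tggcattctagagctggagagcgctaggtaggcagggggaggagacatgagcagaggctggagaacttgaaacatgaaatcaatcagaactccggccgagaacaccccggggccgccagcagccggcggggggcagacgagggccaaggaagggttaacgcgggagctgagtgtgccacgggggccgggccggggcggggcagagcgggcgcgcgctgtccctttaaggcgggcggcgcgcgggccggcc
Wnt8b: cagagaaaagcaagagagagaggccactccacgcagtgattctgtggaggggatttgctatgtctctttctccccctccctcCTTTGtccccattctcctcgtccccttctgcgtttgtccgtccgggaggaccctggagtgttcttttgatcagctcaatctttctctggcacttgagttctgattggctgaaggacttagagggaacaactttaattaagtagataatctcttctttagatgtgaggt
The *Wnt8b* window held 1 match, 168 bases before the start, and the *Axin2* window held none. Of 32851 windows of the same length, 48.6% held CTTTG and 3.21% held the longer CTTTGAT, which contains it. Of the 8 windows of the 10 genes, 5 held the shorter form, in *Lef1* and *Wnt8b* (4 of the 8 windows are overlapping or alternative starts of *Lef1*), and 0 held the longer one.

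Clustering without the Wnt genes gave 13 clusters, named where cell type markers led them. They were excitatory neuron-like (cluster 0, 1559 cells), led by *Cxcl12* and *Cdh8* (cluster 1, 939 cells, unnamed), intermediate progenitor-like (cluster 2, 839 cells), cycling (cluster 3, 734 cells), radial glia-like (cluster 4, 677 cells), migrating interneuron-like (cluster 5, 552 cells), subpallial progenitor-like (cluster 6, 405 cells), striatal neuron-like (cluster 7, 373 cells), led by *Hells* and *E2f1* (cluster 8, 166 cells, unnamed), melanocyte-like, immune cell-like, Cajal-Retzius cell-like (cluster 11, 39 cells) and erythroid-like (27 cells). The samples are labeled neuronal, and the radial glia-like, melanocyte-like, immune cell-like and erythroid-like clusters are not. Of the 734 cells of the cycling cluster, 710 were subpallial (ventral) by the gene lists described further on. Levels across clusters are descriptions with no test. Melanocyte-like cells, with a median of 5362 UMIs, served as a reference of cells that should lack most of these genes, and there *Sfrp1*, *Wnt7a*, *Wnt7b*, *Wnt8b*, *Fzd8* and *Lef1* had 0 UMIs in 147 cells. *Axin2* averaged 0.0533 there (0.0425 to 0.0746 by library), *Wnt5a* 0.0397, *Rspo3* 0.0133 and *Nkd1* 0.00886. The *Axin2* means of clusters 0 (0.0501), 5 (0.0469), 1 (0.0420) and 8 (0.0404) did not exceed this reference.

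**Figure D1:**
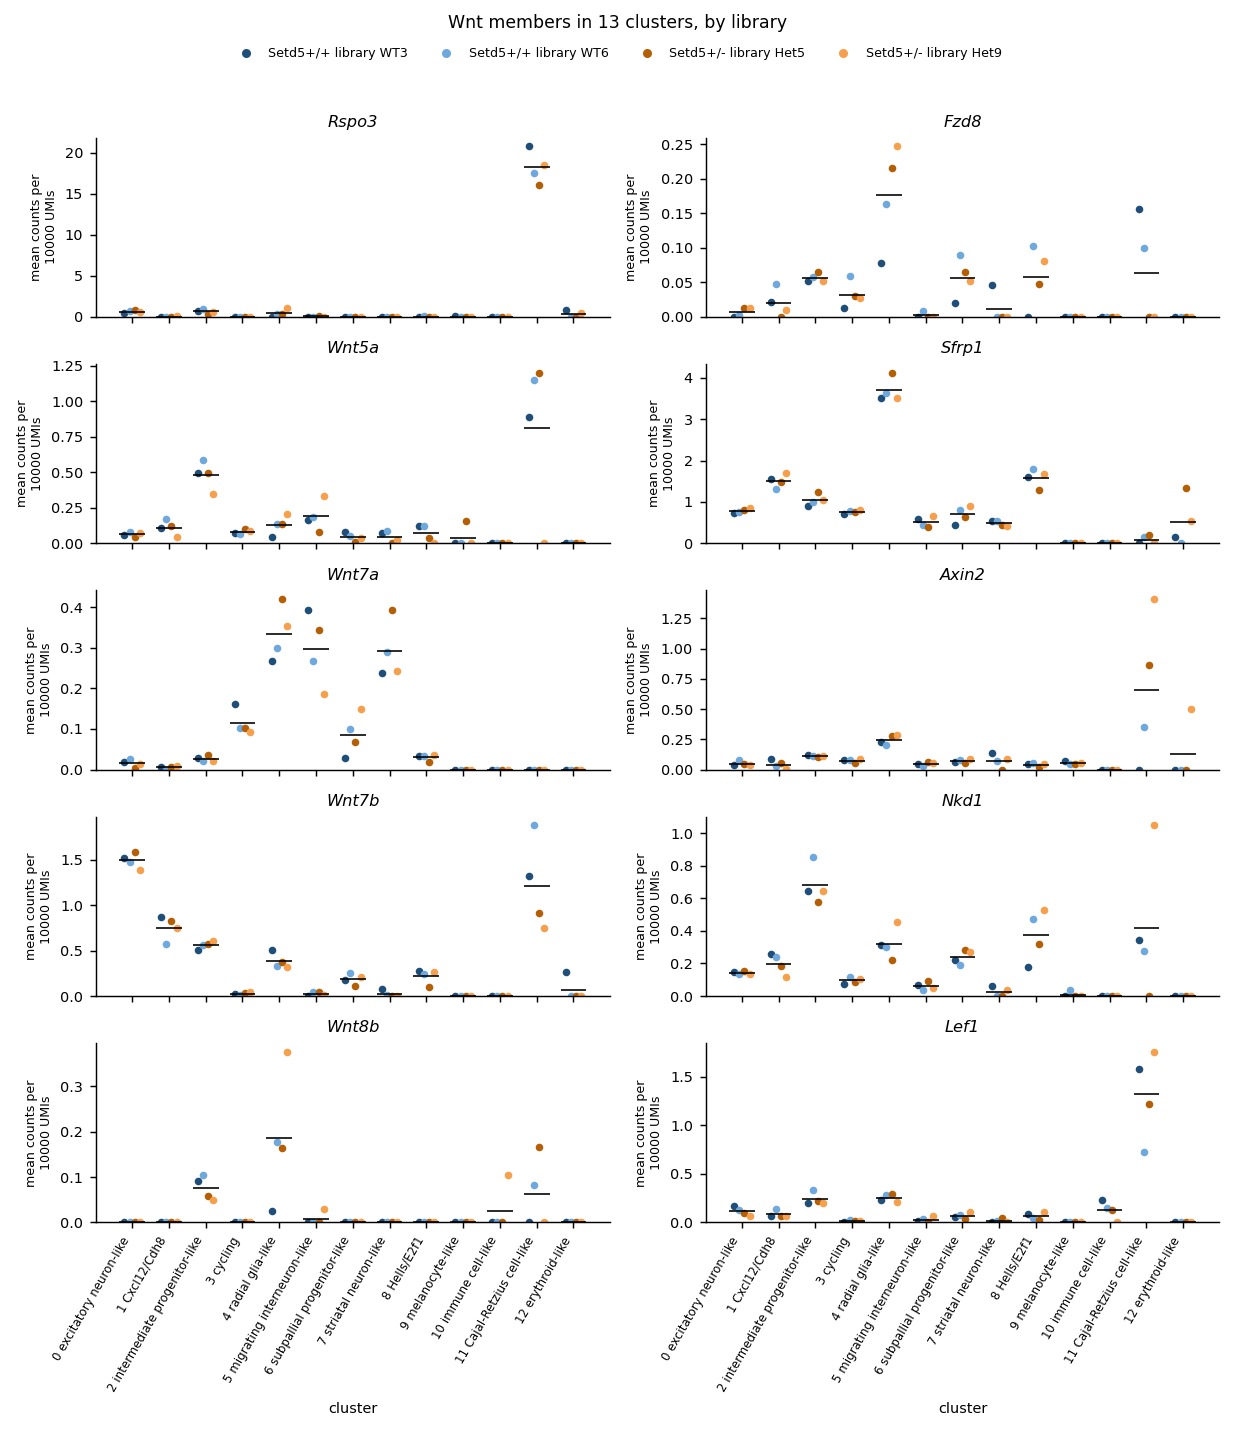
Mean counts per 10000 UMIs (vertical axis, linear, each panel with its own range) of the 10 genes in the 13 clusters (horizontal axis), with 1 point per library and a black bar at the mean of the 4 libraries. *Rspo3* reached 16.1 to 20.8 in cluster 11, *Wnt7b* was highest in clusters 0 and 11, and *Sfrp1* in cluster 4. Cluster 11 rests on 8 to 15 cells a library and cluster 12 on 2 to 13.

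*Rspo3*, which encodes the secreted R-spondin 3 (chromosome 10, 29452416 to 29535867, minus strand, GRCm38), was found as 1779 UMIs in 429 cells. Of these UMIs, 34.4% lay in cluster 0, 28.5% in the 39 cells of cluster 11, 25.1% in cluster 2 and 10.2% in cluster 4. In cluster 11 it averaged 20.8, 17.6, 16.1 and 18.47 in WT3, WT6, Het5 and Het9, and 34 of the 39 cells carried it. The libraries lay close together there. In cluster 2 the means were 0.739, 0.995, 0.386 and 0.599, in cluster 0 they were 0.454, 0.671, 0.792 and 0.606, and the ranges of both clusters over libraries overlapped. In cluster 4 they spread from 0.00836 in WT3 to 1.02 in Het9.

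The source cells differed in how many carried *Rspo3* and how much. In cluster 0, 18.3% of cells had a UMI of it (12.9% after thinning each cell to 3000 UMIs), with at most 12 UMIs in a cell. In cluster 2 only 7.15% did (5.68% thinned), and single cells reached 28 UMIs. Melanocyte-like cells gave 0.680%. The *Rspo3* cells of cluster 11 carried the Cajal-Retzius genes *Reln* (33 of 34) and *Trp73* (30 of 34), and 2 of the 34 had *Wnt8b*. The 60 *Rspo3* cells of cluster 2 had *Reln* in 23 and *Trp73* in 3, and 22 had *Wnt8b*. None of the 286 *Rspo3* cells of cluster 0 had a *Wnt8b* UMI, which limits the share of cells with a UMI to 1.05% and not the share that express it.

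*Wnt7b*, a ligand made by cortical neurons (chromosome 15, 85535437 to 85582473), had 56.1% of its 2230 UMIs in cluster 0, where the libraries gave 1.52, 1.47, 1.59 and 1.39. It averaged 0.569 to 0.873 in cluster 1 and 0.511 to 0.603 in cluster 2. Cluster 0 stood above both, and these 2 overlapped each other. In the mostly subpallial cycling cluster and in the migrating interneuron-like and striatal neuron-like clusters its mean was 0.0230 to 0.0255. Cycling pallial cells, which lay in other clusters, averaged 0.234. *Wnt7a*, the closest relative of *Wnt7b* (chromosome 6, 91363981 to 91411363), was distributed differently. Of its 374 UMIs, 45.7% lay in radial glia-like cells, 16.3% in migrating interneuron-like and 10.2% in striatal neuron-like cells. The means of these 3 clusters, 0.335, 0.297 and 0.291, overlapped over libraries, whereas cluster 0 averaged 0.0160.

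*Wnt5a*, a ligand best known for signaling without β-catenin (chromosome 14, 28504750 to 28527448), had 50.6% of its 631 UMIs in intermediate progenitor-like cells. The means there were 0.496, 0.586, 0.493 and 0.343, above every library of the migrating interneuron-like cluster (0.0789 to 0.332), the next in order outside the few cells of clusters 11 and 12. In cluster 11 *Wnt5a* spread from 0 in Het9 to 1.202 in Het5. *Wnt8b* (chromosome 19, 44493472 to 44514273), a ligand of the hem and of the medial pallial wall, was rare. It had 136 UMIs in 62 cells, 7 of them from WT3, 21 from WT6, 18 from Het5 and 16 from Het9, and 59.6% of its UMIs lay in cluster 4 and 37.5% in cluster 2. No UMI of it was found in clusters 0, 1, 3, 6, 7, 8, 9 or 12.

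**Figure D2:**
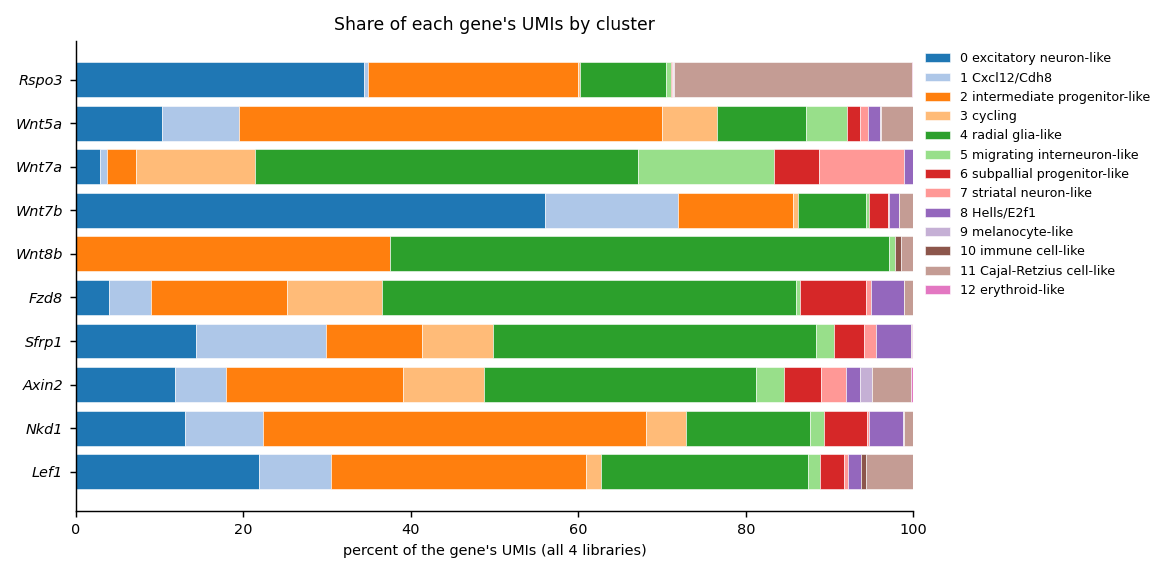
Share of each gene's UMIs (horizontal axis, percent, all 4 libraries summed) by cluster (colors), 1 bar per gene. *Wnt7b* lies mostly in cluster 0 (56.1%), *Wnt5a* and *Nkd1* in cluster 2 (50.6% and 45.8%), *Wnt8b* in clusters 4 and 2, and *Rspo3* divides between clusters 0, 2, 4 and 11. A share depends on the number of cells in the cluster as well as on the level.

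The receptor and the antagonist were both led by radial glia-like cells. *Fzd8*, a Frizzled receptor gene on chromosome 18, had 49.4% of its 178 UMIs in cluster 4, at 0.0784, 0.163, 0.216 and 0.248 in WT3, WT6, Het5 and Het9. Through WT3 this range overlapped those of clusters 8 (0 to 0.103) and 6 (0.0200 to 0.0893). *Sfrp1*, whose product binds Wnt ligands outside the cell (chromosome 8, 23411502 to 23449632), had 38.5% of its 4593 UMIs in cluster 4, at 3.52, 3.63, 4.13 and 3.51. No library of another cluster reached that range for *Sfrp1*, the next being clusters 8 (1.28 to 1.79) and 1 (1.31 to 1.69). In the Cajal-Retzius cell-like cluster, where *Rspo3* peaked, *Sfrp1* had 3 UMIs in 39 cells.

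Among clusters with at least 20 cells in each library, clusters 4 and 2 led for *Axin2* and *Lef1*, and clusters 2 and 8 for *Nkd1*. *Axin2*, a scaffold of the β-catenin destruction complex (chromosome 11, 108920349 to 108950783), averaged 0.227, 0.205, 0.274 and 0.286 in cluster 4 and 0.123, 0.115, 0.101 and 0.116 in cluster 2. These ranges did not overlap, and in the few cells of cluster 11 it spread from 0 to 1.41. *Nkd1*, a Dishevelled-binding inhibitor (chromosome 8, 88521354 to 88594884), took the reverse order, with 0.644, 0.851, 0.580 and 0.644 in cluster 2 and 0.314, 0.299, 0.218 and 0.453 in cluster 4. Cluster 8 came between them at 0.375, and its range (0.178 to 0.530) overlapped that of cluster 4. *Lef1*, one of the TCF/LEF factors (chromosome 3, 131110471 to 131224356), averaged 0.252 in cluster 4 and 0.239 in cluster 2, with overlapping ranges. Its mean was 0.128 in the immune cell-like cluster (0 to 0.229 by library), 0.118 in cluster 0 and 0.0153 in the mostly subpallial cycling cluster. Cycling pallial cells, which lay in other clusters, averaged 0.202. In the 39 Cajal-Retzius cell-like cells *Lef1* averaged 1.58, 0.728, 1.22 and 1.76.

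Over the 13 clusters, the genes most like each member were found among 8321 genes by Pearson's r of log2(mean + 0.1), a description over clusters that share their libraries. They were *Lrrc73* for *Rspo3* (r = 0.914), *Lhx9* for *Wnt5a* (0.895), *Rgma* for *Wnt7a* (0.887), *Lrpap1* for *Wnt7b* (0.897), *Igfbp5* for *Wnt8b* (0.908), *Mt3* for *Fzd8* (0.941), *Ptn* for *Sfrp1* (0.944), *Sema6a* for *Axin2* (0.915), *E130114P18Rik* for *Nkd1* (0.943) and *Thrsp* for *Lef1* (0.920). *E330013P04Rik* was among the 3 most like genes of both *Axin2* and *Lef1*, and *Lhx9* among those of both *Wnt5a* and *Lef1*.

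Cells with a *Wnt8b* UMI had higher levels of *Rspo3*, *Wnt5a* and the response genes, but not of *Wnt7b*. This is a description with no test, and such cells were deeper than the rest. They were 29 of 839 cells in cluster 2 (median 8590 UMIs, against 6550.5 in the other cells) and 29 of 677 in cluster 4 (median 7958, against 6959.5). In cluster 2, *Rspo3* averaged 20.1, 13.9, 5.79 and 12.1 in the *Wnt8b* cells of WT3, WT6, Het5 and Het9 and 0.139 to 0.357 in the others. *Wnt5a* averaged 2.33 to 4.34 against 0.287 to 0.457. Both ranges lay apart, whereas *Wnt7b* was 0 to 0.458 against 0.527 to 0.620 in cluster 2 and overlapped in cluster 4 (0.293 to 0.615 against 0.323 to 0.507). In all, 41 of the 62 *Wnt8b* cells had *Rspo3*.

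The response genes were high in these same cells. *Nkd1* averaged 9.31, 5.42, 3.65 and 5.03 in the *Wnt8b* cells of cluster 2 and 0.375 to 0.625 in the others, and *Axin2* 0.437 to 1.17 against 0.0773 to 0.0970. After thinning to 3000 UMIs, 58.6% of them had *Nkd1* and 17.2% *Axin2*, against 10.7% and 2.51% of the others. In cluster 4 *Axin2* averaged 0.384, 1.44, 1.83 and 1.36 in the *Wnt8b* cells and 0.162 to 0.224 in the others, and *Nkd1* 1.30 to 2.84 against 0.0950 to 0.295. *Lef1* was 0.708 to 2.69 against 0.166 to 0.254 there, and in cluster 2 it was 0.861 to 1.40 in 3 libraries and 0 in the 5 cells of Het9. The library WT3 held only 2 such cells in cluster 4.

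The antagonist was low in the *Wnt8b* cells. *Sfrp1* gave 1 UMI in the 29 *Wnt8b* cells of cluster 2, against means of 0.933 to 1.28 in the other cells, and 0.0853 to 1.15 in those of cluster 4, against 3.58 to 4.32. Thinned, 0% and 7.14% of the *Wnt8b* cells had *Sfrp1*, against 23.7% and 56.5% of the others. *Fzd8* had 0 UMIs in the *Wnt8b* cells of either cluster, where 0 of 29 cells allows a share of up to 10.3%, and 3.46% and 11.6% of the other cells carried it. Thinned, the shares of the other cells were 1.88% and 5.60%, under that limit, so a difference was not detectable at this depth. *Wnt7a* had 0 UMIs in these cells of cluster 2 and 4 UMIs in those of cluster 4.

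**Figure D3:**
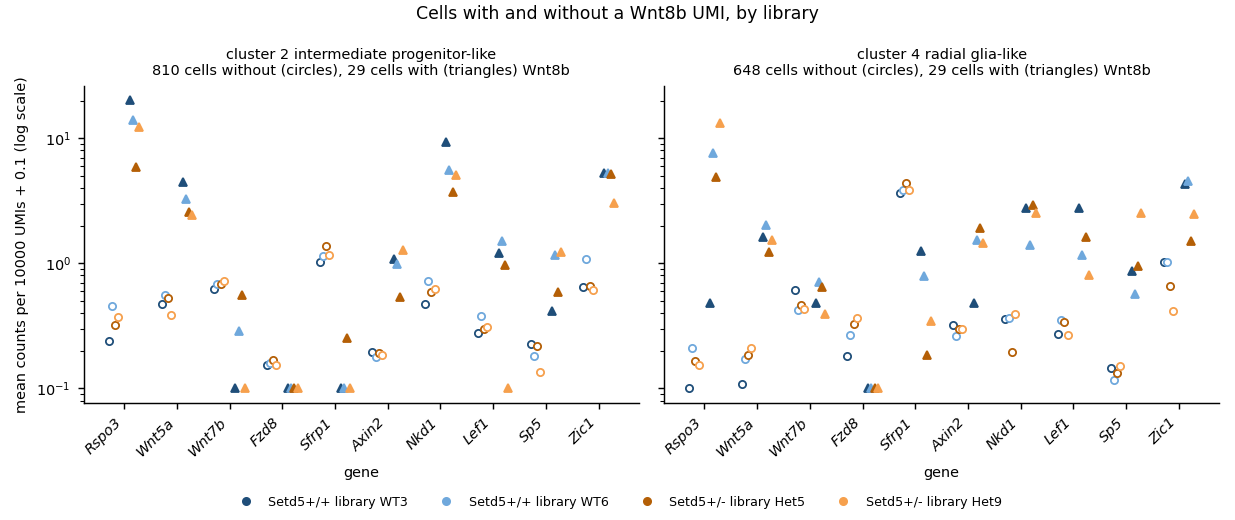
Mean counts per 10000 UMIs plus 0.1 (vertical axis, log scale) of 10 genes in cells without (open circles) and with (filled triangles) a *Wnt8b* UMI in clusters 2 (left) and 4 (right), 1 point per library, each group of *Wnt8b* cells being 2 to 12 cells a library. *Rspo3*, *Wnt5a*, *Axin2*, *Nkd1*, *Sp5* and *Zic1* sit higher and *Sfrp1* lower in the *Wnt8b* cells of both clusters. Points at 0.1 are means of 0.

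Each of the 6 measured hem genes was found in a minority of the *Wnt8b* cells. *Dmrt3* was in 10 of the 29 cells of either cluster, *Lmx1a* in 5 of those of cluster 2 and 1 of those of cluster 4, *Msx1* in 5 and 7, *Rspo1* in 4 and 10, *Bmp7* in 3 and 9 and *Wnt3a* in 1 and 5. Of the 810 other cells of cluster 2 and the 648 of cluster 4, *Dmrt3* was in 66 and 57, *Lmx1a* in 2 and 1, *Msx1* in 7 and 22, *Rspo1* in 0 and 14, *Bmp7* in 9 and 28 and *Wnt3a* in 1 and 1. *Zic1*, a factor of medial and dorsal midline tissue, was in 27 and 22 of the 29 cells. The cells are therefore called by *Wnt8b* and not as hem. Other pathway genes were also higher in the *Wnt8b* cells. *Sp5*, a direct response gene, averaged 0.316 to 1.13 in the *Wnt8b* cells of cluster 2 against 0.0364 to 0.125, and *Wls*, which carries Wnt ligands to the cell surface, 0.384 to 2.62 in those of cluster 4 against 0.0523 to 0.142.

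To ask how response genes differ between the dorsal (pallial) and ventral (subpallial) telencephalon, cells were sorted by lists of 8 pallial and 9 subpallial genes that hold no member, with a difference of at least 2 UMIs, and compared within each library by limma with the library as block. Among cells with at least 5 UMIs of 10 cycling genes, 272 were pallial and 793 subpallial. The pallial ones lay in clusters 4 (140 cells) and 8 (110), the subpallial ones in cluster 3 (710), so the 2 groups also differ in cluster. *Sfrp1* averaged 2.78, 2.77, 2.90 and 2.50 in the pallial and 0.689, 0.777, 0.837 and 1.05 in the subpallial cells of WT3, WT6, Het5 and Het9. All 4 libraries went the same way, with a log2 fold change of 1.61 (SE 0.11, adjusted p = 2.99e-09 by limma).

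Of the response genes in cycling cells, *Nkd1* averaged 0.261, 0.279, 0.380 and 0.475 in pallial and 0.0831, 0.125, 0.108 and 0.106 in subpallial cells, and rose by 1.10 (SE 0.19, adjusted p = 0.000192 by limma). *Lef1* averaged 0.0823, 0.347, 0.226 and 0.152 against 0.0102 to 0.0247, a log2 fold change of 1.30 (SE 0.22, adjusted p = 0.000194). The groups did not overlap for either gene, as was the case for 27.1% of all genes. *Lef1* fell under the limit on low values (a mean of at least 0.1 over both classes), and had no call, with cells thinned to 3000 UMIs, without WT6, without shared barcodes and with lists that differ by 4 UMIs. In the main fit *Lef1* passed that limit only through the pallial cells, so its adjusted p-value is no support. *Axin2*, at 0.0428, 0.185, 0.203 and 0.205 against 0.0543 to 0.0753, did not pass the threshold (0.55, SE 0.23, adjusted p = 0.0827), and WT3 lay below its subpallial value. Without WT3 it was 0.83 (adjusted p = 0.00815 by limma).

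Among the ligands in cycling cells, *Wnt7b* was 0.133 to 0.396 in pallial and 0.0238 to 0.0584 in subpallial cells (log2 fold change 1.22, SE 0.21, adjusted p = 0.000178), and *Wnt7a* was 0.0673 to 0.294 against 0.0970 to 0.154 (0.30, SE 0.23, 95% interval -0.19 to 0.78, adjusted p = 0.384 by limma). The *Wnt7a* value was 0.60 without WT3 (adjusted p = 0.0595 by limma) and 0.076 without Het5. *Rspo3* averaged 0.0175, 0.102, 0.454 and 0.357 against 0 to 0.0164 (1.37, SE 0.30, adjusted p = 0.00188), and fell under the limit, with no call, without Het5 and with lists that differ by 4 UMIs. *Wnt8b* had 27 UMIs in the pallial cells and 0 in the 793 subpallial ones. In all, 7 of the 10 members passed the limit on low values and 5 of these were higher in pallial cells, where 15.9% of all 7847 genes tested were higher and 10.7% lower. *Rspo3*, *Wnt7b*, *Axin2* and *Lef1* were under it in subpallial cells and passed only through the pallial ones. Neither this count nor the adjusted p-values of these genes are therefore support. With the log2 values centered on the median gene of each library, the split of all calls turned from 1247 higher of 2088 to 912 higher of 2150, and the same number of members, 5, was called.

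In cells outside the cycling and radial glia gates (3309 pallial and 1172 subpallial), *Wnt7b* was higher and *Wnt7a* lower in pallial cells, and each passed the limit only through the class where it was high. The pallial cells lay in clusters 0 (1535 cells), 1 (923) and 2 (734), and the subpallial ones in clusters 5 (531), 7 (336) and 6 (282), so the classes hardly shared a cluster. They also differed in depth (median 5714 against 4179 UMIs). With cells thinned to equal depth, the log2 fold change was 2.91 for *Wnt7b* and -1.61 for *Wnt7a*, against 3.01 and -1.61 without thinning. The part of the clusters in these differences was not tested. *Wnt7b* averaged 1.11, 0.992, 1.11 and 1.03 in pallial and 0.0287, 0.0563, 0.0412 and 0.0527 in subpallial cells (log2 fold change 3.01, SE 0.11, adjusted p = 7.25e-14 by limma). *Wnt7a* averaged 0.0132, 0.0158, 0.00961 and 0.0159 in pallial and 0.252, 0.247, 0.291 and 0.202 in subpallial cells, and fell by 1.61 on the log2 scale (SE 0.13, adjusted p = 4.37e-09). The ranges lay apart for both genes, in opposite directions, and 32.8% of all genes did not overlap. *Wnt5a* was higher in pallial cells by 0.46 (SE 0.16, adjusted p = 0.0338), but its libraries overlapped (0.113 to 0.247 against 0.0416 to 0.145), Het9 went the other way (0.113 pallial, 0.145 subpallial), and without WT6 or Het5 it was 0.39 and 0.26 with adjusted p = 0.172 and 0.278.

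*Rspo3* averaged 0.586, 0.880, 0.647 and 0.624 in these pallial cells and 0 to 0.0179 in the subpallial ones (2.83, SE 0.13, adjusted p = 9.69e-13 by limma). Outside the Cajal-Retzius cell-like cluster, which gave 36 of the 3309 pallial cells, it still averaged 0.372, 0.575, 0.505 and 0.451. *Sfrp1* was 0.958 to 1.12 against 0.357 to 0.557 (1.05, SE 0.09, adjusted p = 3.37e-08), and *Nkd1* 0.237 to 0.352 against 0.0583 to 0.0827 (1.21, SE 0.12, adjusted p = 2.07e-07). *Axin2* was under the limit, at 0.0652 to 0.0749 against 0.0539 to 0.0692, where melanocyte-like cells gave 0.0425 to 0.0746. Of the 10 members 6 passed the limit, 5 were higher and 1 lower in pallial cells, where 18.6% of 7849 genes were higher and 15.0% lower. With values centered on the median gene, the split of all calls went from 1460 higher of 2641 to 1241 higher of 2647, and 6 members were called. *Rspo3*, *Wnt7b* and *Nkd1* passed only through the pallial and *Wnt7a* only through the subpallial cells. Neither this count nor the adjusted p-values of these genes are therefore support.

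**Figure D4:**
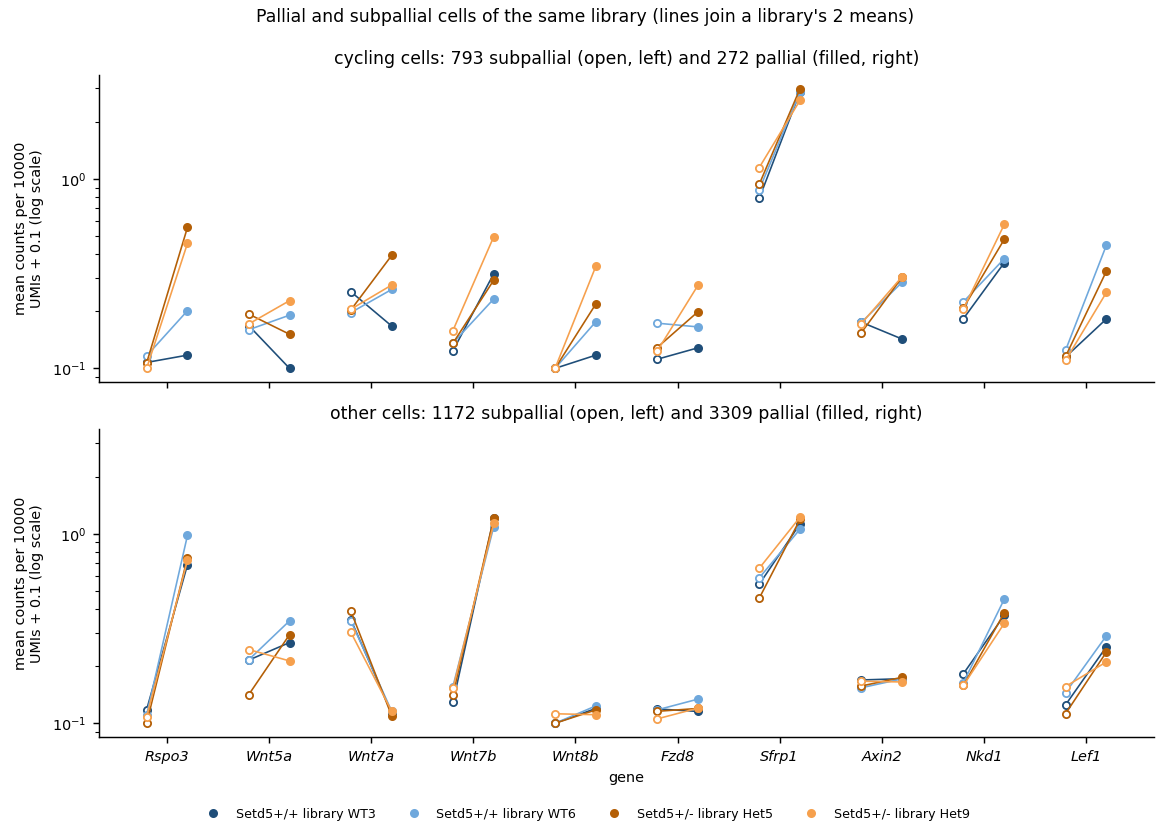
Mean counts per 10000 UMIs plus 0.1 (vertical axis, log scale) of the 10 genes (horizontal axis) in subpallial (open, left) and pallial (filled, right) cells, with lines joining the 2 means of each library, for cycling cells (top) and for cells outside the cycling and radial glia gates (bottom). In the lower panel *Wnt7b* and *Rspo3* climb and *Wnt7a* descends from subpallial to pallial cells in all 4 libraries.

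Radial glia outside the cycle could not be fitted, since only 64 were subpallial (8, 20, 26 and 10 by library) against 305 pallial. The pallial ones lay in clusters 4 (188 cells) and 2 (95), the subpallial ones in clusters 6 (36), 4 (20) and 5 (8), so the class was made up of different clusters in each lineage. *Sfrp1* averaged 1.94, 2.74, 2.33 and 2.13 in pallial and 1.68, 2.82, 2.36 and 2.11 in subpallial radial glia, with ranges that overlapped. *Rspo3* averaged 0.0849 to 0.952 and *Wnt8b* 0.0341 to 0.416 in pallial cells, and both had 0 UMIs in the subpallial ones. Of the response genes, *Lef1* averaged 0.261 to 0.456 in pallial and 0 to 0.0818 in subpallial cells. *Nkd1* (0.290 to 0.769 against 0.0670 to 1.37) and *Axin2* (0.112 to 0.291 against 0 to 0.591) overlapped, with the higher mean over libraries in the few subpallial cells.

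Of the 83 other Wnt pathway genes in the table, 38 passed the limit in each comparison. In cycling cells 15 were higher and 3 lower in pallial cells (median log2 fold change 0.25, against 0.04 over all genes), where 15.9% of all genes were higher and 10.7% lower. By role, 3 of 3 secreted antagonists, 3 of 7 receptors, 3 of 4 other response genes and 4 of 9 nuclear effectors were higher and 1 effector lower, 2 of 14 cytoplasmic transduction genes were higher and 2 lower, and the 1 ligand secretion gene did not pass. *Draxin*, an inhibitor that is also a guidance cue, was 1.84 higher (SE 0.19, adjusted p = 5.43e-07 by limma) and *Dkk3* 1.57 higher. *Fzd9* was higher by 1.87, and the largest changes were those of *Id2* (2.36) and *Tnfrsf19* (2.16), both listed as response genes. *Draxin*, *Dkk3*, *Fzd9* and *Tnfrsf19* were under the limit in subpallial cells and passed only through the pallial ones. In the other cells 13 were higher and 7 lower (median 0.08, against 0.02), where 18.6% of all genes were higher and 15.0% lower. On the same scale, *Id2* (2.93) and *Fzd1* (1.81) were the largest rises and *Wls* (-1.31), *Jun* (-1.13) and *Tle4* (-0.85) the largest falls in pallial cells. *Fzd1* passed the limit only through the pallial and *Wls* only through the subpallial cells, so neither these counts nor those in cycling cells are support. The same holds for the adjusted p-value of *Draxin*.

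To determine whether loss of 1 *Setd5* copy changed these genes, the genotypes were compared over all cells. *Rspo3* averaged 0.318 and 0.440 in *Setd5*+/+ and 0.371 and 0.451 in *Setd5*+/- libraries, *Wnt7b* 0.644 and 0.4995 against 0.653 and 0.649, and *Sfrp1* 1.01 and 1.15 against 1.32 and 1.16. *Wnt7b* and *Sfrp1* did not overlap between genotypes, as was the case for 32.0% of all genes. Of the 7 members that passed the limit (*Wnt8b*, *Fzd8* and *Axin2* did not), limma called 0, against 0.086% of 8137 genes, and none had an unadjusted p under 0.05 (353 of all genes did). The log2 fold changes ran from -0.14 for *Wnt5a* to 0.18 for *Sfrp1*, and their 95% intervals from -0.41 to 0.41. With 1 library left out, *Wnt5a* ran from -0.28 (without WT3) to -0.011 (without WT6) and *Sfrp1* from 0.092 (without Het5) to 0.27 (without Het9). Of the 38 other Wnt genes tested 0 were called.

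Within clusters, 40 values of members could be tested and limma called 0, with 6 at an unadjusted p under 0.05 and a lowest adjusted p of 0.484. Of all 83031 values by gene and cluster 4275 had an unadjusted p under 0.05 and 0.102% were called, 0.0% to 0.218% by cluster. The 40 values comprised 21 higher and 19 lower in *Setd5*+/-, and 14 did not overlap, against 33.8% of all values by gene and cluster. The values of *Rspo3* pointed both ways. In cluster 2 it was lower in both *Setd5*+/- libraries (0.739 and 0.995 in *Setd5*+/+, 0.386 and 0.599 in *Setd5*+/-, log2 fold change -0.72, SE 0.18, adjusted p = 0.484 by limma), and in cluster 4 it was 0.00836 and 0.357 against 0.278 and 1.02 (1.55, SE 0.45, adjusted p = 0.562), with overlap. Each depended on single libraries, although a genotype is then left with 1 library, which is assumed to vary like those of the other genotype. In cluster 2 *Rspo3* was called without WT3 (-0.91, adjusted p = 0.00798 by limma) or without Het9 (-0.98, adjusted p = 0.000343), and in cluster 4 without WT6 (2.59, adjusted p = 9.11e-07). *Wnt8b* in cluster 4 (0.93, SE 0.32, adjusted p = 0.751) was likewise called without WT6 (1.501, adjusted p = 0.00539).

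Of the 446 *Rspo3* UMIs of cluster 2, 275 lay in its 29 *Wnt8b* cells, and in the other 810 cells the genotypes overlapped (0.139 and 0.357 in *Setd5*+/+, 0.222 and 0.272 in *Setd5*+/-). Most *Rspo3* UMIs of cluster 4, 146 of 182, also lay in its *Wnt8b* cells. These made up 2 of 92, 8 of 242, 10 of 222 and 9 of 121 cells in the libraries WT3, WT6, Het5 and Het9, or 2.17%, 3.31%, 4.50% and 7.44%, with exact binomial 95% intervals of 0.264% to 7.63% and 3.46% to 13.7% for the lowest and the highest (counting error only). Without them *Rspo3* averaged 0, 0.111, 0.0660 and 0.0535 in the 4 libraries. The summed level of the 6 hem genes in cluster 4 was 0.273, 0.541, 0.464 and 0.824, and that of 5 choroid plexus genes 0.158, 0.487, 0.351 and 22.1, the last owing to *Ttr*, with 2 cells of at least 5 *Ttr* UMIs in Het9. Oligodendrocyte precursor genes summed to 1.90 and 1.44 in the *Setd5*+/+ and 0.454 and 0.371 in the *Setd5*+/- libraries there. The part of these cells in the values of cluster 4 was not tested.

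**Figure D5:**
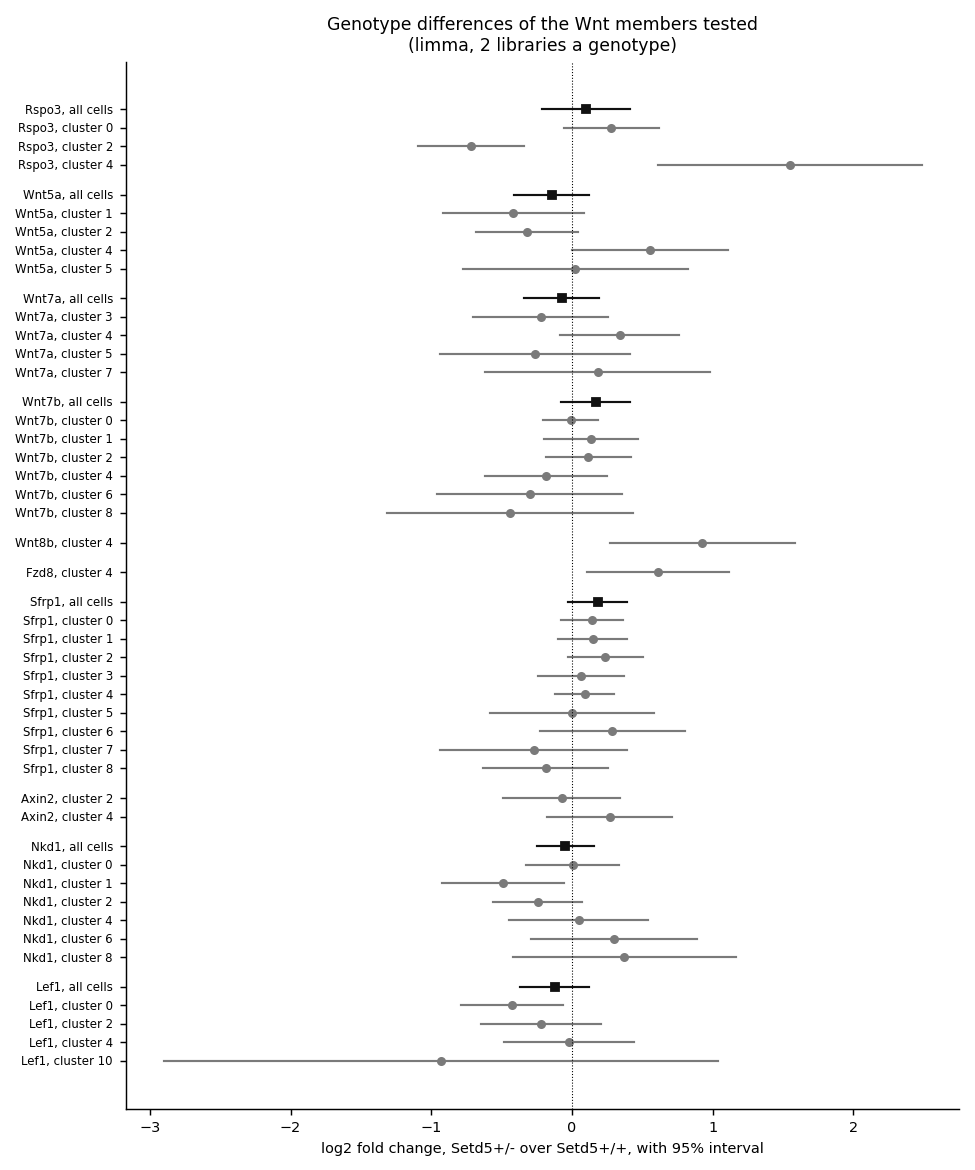
Log2 fold change of *Setd5*+/- over *Setd5*+/+ (horizontal axis) with its 95% interval from limma, for each member that passed the limit over all cells (black squares) and within each cluster (gray circles). The intervals of *Rspo3* in clusters 2 and 4, *Wnt8b* and *Fzd8* in cluster 4, *Lef1* in cluster 0 and *Nkd1* in cluster 1 leave out 0 before adjustment, and none passed after it.

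*Fzd8* in cluster 4 was 0.0784 and 0.163 in *Setd5*+/+ and 0.216 and 0.248 in *Setd5*+/- libraries (0.61, SE 0.24, adjusted p = 0.904 by limma), and *Lef1* in cluster 0 was 0.171 and 0.130 against 0.102 and 0.0710 (-0.43, SE 0.17, adjusted p = 0.963). *Nkd1* in cluster 1 was 0.260 and 0.237 against 0.186 and 0.115 (-0.49, SE 0.21, adjusted p = 0.940). The genotypes did not overlap in these 3 cases, and none passed the threshold.

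The pallial minus subpallial difference itself was also compared between genotypes. Limma called 0 members in either class of cells, against 0.0% of 7847 genes in cycling cells (319 at an unadjusted p under 0.05) and 0.0637% of 7849 in the others. In cycling cells the difference of *Rspo3* was larger in *Setd5*+/- by 1.82 (SE 0.43, 95% interval 0.90 to 2.74, adjusted p = 0.772). This value rests on 61 *Rspo3* UMIs in pallial and 6 in subpallial cells, and the gene passed the limit only through the pallial ones. In the other cells the difference of *Wnt7b* changed by -0.02 (95% interval -0.50 to 0.46) and that of *Wnt7a* by 0.00 (-0.54 to 0.55).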

How the data were processed

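The 4 libraries were made with the 10x Genomics 3′ kit and, per the submitters' processing notes, processed with Cell Ranger 2.1, Seurat 2.3.0 and mm10. No source used here gives the annotation or the filter on cells. Each cell's name starts with 1 of 4 prefixes, which tell the genotype but not the replicate number, and each prefix was taken as 1 library. The authors deposited the natural log of 1 plus counts per 10000 UMIs for each cell. From these values whole UMI counts were recovered (100% of 14848520 values within 0.001 of a whole number). No doublet caller was run, and the deposited cells held 1258 to 14996 UMIs.

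Cells were clustered with Scanpy 1.11.5 (2000 variable genes, 20 components, 20 neighbors, Leiden resolution 0.3), leaving out the 93 Wnt genes of the table, 16 genes the study reported and *Setd5*. Each gene's level was averaged over the cells of a library, and log2(mean + 0.1) was tested with limma 3.58.1 in R 4.3.3 with Benjamini-Hochberg adjustment over all genes with a mean of at least 0.1, threshold 0.05, which fits normalized values. Fold changes are on that scale and understate the change of low genes. Genotype was tested over 2 against 2 libraries, in all cells and in clusters with at least 20 cells in each library, and the lineage difference with the library as block, since both classes come from the same libraries. The scripts were tested on simulated data. Shares of cells were also taken after thinning each cell to 3000 UMIs, leaving out 526 shallower cells (103, 169, 130 and 124 by library); intervals and limits from a count of 0 (3 counts) cover counting error only. Alternatives changed the pseudocount, filter, averaging, centering, depth, clustering, lineage cuts, block, shared barcodes and single libraries.

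The members and lists were chosen with earlier results of these data known. The genes named are the members, *Setd5*, cell type markers, up to 5 other Wnt genes with the largest change past the threshold in each comparison, and the genes most like each member. *Xist*, *Ddx3y*, *Sp5*, *Wls* in the *Wnt8b* cells, *Zic1* and the motif were chosen after values were seen. Coordinates are from GRCm38. A split of the excitatory neuron-like cells is not reported here.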

Additional observations from a re-analysis of the deposited data

Results flagged for a closer look

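*Sfrp1* and *Nkd1* differed between genotypes in opposite directions in different clusters, without overlap of the libraries within a cluster. None of these differences passed the threshold. The difference between clusters was not tested. *Sfrp1* averaged 0.741 and 0.748 in *Setd5*+/+ and 0.808 and 0.854 in *Setd5*+/- libraries in cluster 0 and 0.905 and 0.997 against 1.25 and 1.04 in cluster 2, whereas in the striatal neuron-like cluster 7 it was 0.536 and 0.546 against 0.441 and 0.421. The log2 fold change in cluster 0 was 0.41 above that in cluster 7, and the one in cluster 2 was 0.51 above it. *Nkd1* averaged 0.218 and 0.191 against 0.281 and 0.270 in the subpallial progenitor-like cluster 6, and its log2 fold change there was 0.79 above that in cluster 1 and 0.54 above that in cluster 2. In cluster 2 the libraries gave 0.644 and 0.851 against 0.580 and 0.644, where WT3 and Het9 are equal at this precision. With 2 libraries a genotype, 33.8% of all values by gene and cluster did not overlap.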

How the results depend on the processing

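The alternatives were run for *Setd5*, for the members tested over all cells and between lineages, for the 6 values within clusters at an unadjusted p under 0.05 and for *Rspo3* between lineages and genotypes in cycling cells, but not for the other values of either kind. Where the gene still met the limit on low values, 347 of these log2 fold changes kept their direction and their side of the threshold, 9 passed it anew, 4 no longer passed and 5 turned. The number of members called between genotypes within clusters ran from 0 to 2 with 1 library left out (1 without WT3, 2 without WT6 and 1 without Het9). In cycling cells 3 members were called between lineages where the lists had to differ by 4 UMIs, against 5, and 4 without WT6, without Het5, without shared barcodes or thinned. *Lef1* (all of these but Het5) and *Rspo3* (lists, Het5) were then under the limit and had no value. Over all cells, with 1 library left out, the genotype difference ran from -0.083 (without WT3) to 0.28 (without WT6) for *Rspo3*, also below 0 without Het9 (-0.013), from -0.15 (without WT3) to 0.046 (without Het9) for *Wnt7a*, and from -0.12 (without WT3) to 0.028 (without WT6) for *Nkd1*, which was 0.072 with cells thinned to 3000 UMIs. The cause was not tested. *Wnt5a* in the other cells lost its call with no filter on low values (adjusted p = 0.176 by limma), where more genes are tested. *Axin2* in cycling cells was called with summed UMIs (0.73), lists that differ by 1 UMI (0.64) and cycling cells from 3 UMIs (0.56), and *Wnt7a* with lists that differ by 1 UMI (0.58). *Rspo3* in the other cells ran from 0.74 with a pseudocount of 1 to 5.25 with 0.01. Between genotypes, 41 genes were called without Het5 and 13 without WT3, against 7, and between lineages 1190 in thinned cycling cells, against 2088.

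Without the library as block (no pairing of the classes), 5 members were called in cycling cells and 5 in the other cells, where *Wnt5a* dropped out (adjusted p = 0.0640 by limma), and the block changed no other member's call. No paired analysis was possible because the library prefixes do not carry the replicate numbers of the labels, so genotypes were not blocked. The radial glia fits and their alternatives were not run, since 2 libraries had under 20 subpallial cells, and the lower clustering resolution was 0.1, as one 0.3 lower does not exist.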
